A study of Mus musculus with 6 samples.

Results

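The 10 genes described here encode 2 Janus kinases (*Jak1*, *Jak2*), 4 signal transducers and activators of transcription (*Stat3*, *Stat5a*, *Stat5b*, *Stat6*) and 4 cytokine-inducible inhibitors of the pathway (*Socs1*, *Socs2*, *Socs3*, *Cish*). They were chosen by symbol with no measured value in the rule, but with earlier results of these data known. All 10 were found by NCBI Gene identifier among the 18460 genes listed in at least 1 of the 6 tumors. RNA sequencing compared 3 breast tumors of K14-TSLPtg;PyMTtg;Rag1KO mice (test) with 3 breast tumors of PyMTtg;Rag1KO mice (control), to ask which tumor genes differ when mice that carry transferred CD4+ T cells overexpress thymic stromal lymphopoietin (TSLP), a cytokine that activates T helper cells. All mice were Balb/c, carried the PyMT oncogene under the MMTV promoter, which is active in mammary epithelium, lacked *Rag1*, without which no endogenous lymphocytes of the T or B lineage mature, and were injected at 4 wk with sorted naive CD4+ T cells. Tumor tissue was taken at endpoint, between 18 and 20 wk. The K14 promoter drives the *Tslp* transgene in keratinocytes, and *Tslp* was at or under 1.38 CPM in every tumor. Expected counts, which are the authors' estimates of reads per gene, summed to between 8373390 and 9449565 per tumor. According to the study, every tumor was taken from a different mouse.

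In the JAK-STAT pathway, a cytokine or hormone receptor without enzyme activity of its own activates the Janus kinases bound to it, the kinases phosphorylate the receptor, and STAT proteins dock there, are phosphorylated in turn and enter the nucleus as dimers. SOCS proteins and CIS, the product of *Cish*, are themselves made from STAT target genes and switch the receptor off again, which makes them a negative feedback. In the mammary gland, prolactin acts through JAK2 and STAT5 to drive alveolar differentiation and milk protein genes, IL-4 and IL-13 act through STAT6, and STAT3 is known for its part in cell death at involution. RNA levels do not show phosphorylation, and none was measured in these files.

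The 10 genes differed widely in level. On the FPKM scale, which the authors normalized for transcript length and sequencing depth, *Stat3* was the highest with a mean of 83.1 over the 6 tumors and a range of 40.4 to 101.96. *Jak1* followed with a mean of 43.8 (24.7 to 61.5). *Socs1* was the lowest with a mean of 1.47 (0.4 to 3.73), and the mean level of *Stat3* was 56.5 times that of *Socs1*. Between these lay *Socs2* (mean FPKM of 25.7), *Stat6* (25.2), *Stat5a* (14.1), *Socs3* (13.6), *Jak2* (10.6), *Stat5b* (10.3) and *Cish* (6.07). Along this order the ranges of neighbours overlapped everywhere except between *Cish* and *Socs1*. Within the same tumor, *Stat3* was above *Jak1* in 6 of 6 tumors and *Stat6* above *Stat5a* in 6 of 6, whereas *Socs2* against *Stat6*, *Stat5a* against *Socs3* and *Jak2* against *Stat5b* took each order in 3 of 6 tumors.

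**Figure D1:**
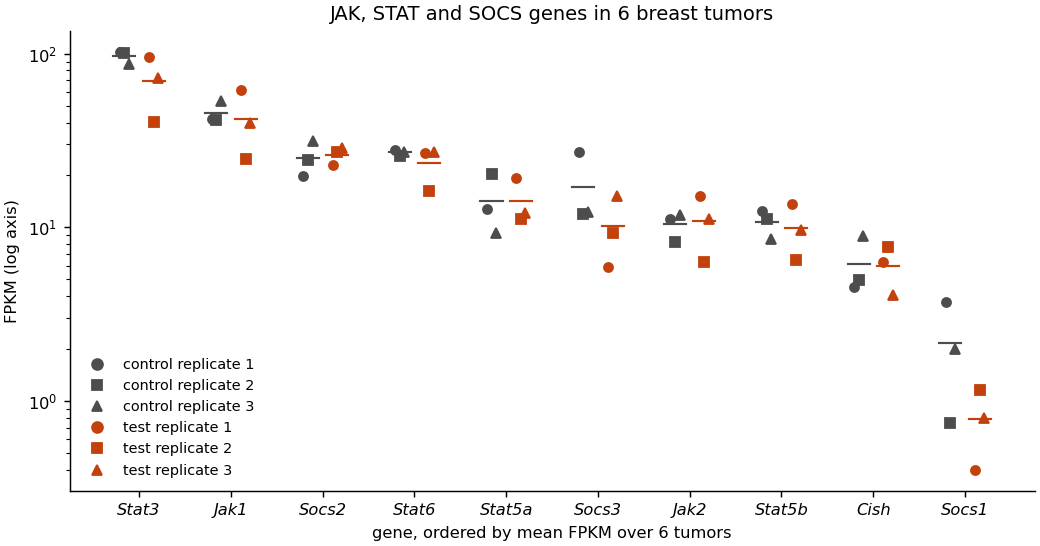
FPKM of each gene in each tumor on a log axis, ordered by the mean over 6 tumors; gray symbols are the 3 control and orange symbols the 3 test tumors, and short bars are group means. Mean FPKM runs from 83.1 for Stat3 to 1.47 for Socs1, and the test and control tumors overlap for all 10 genes.

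Test and control tumors could not be separated by any of the 10 genes. Groups were compared with edgeR's quasi-likelihood test on rounded expected counts, with Benjamini-Hochberg adjustment over the 13706 genes tested, and per-tumor values below are CPM, the counts scaled to the TMM library size. All 10 genes passed the filter on low counts. At an adjusted p under 0.05 the test called 0 of the 10 genes and 0 genes in all (0% of those tested), whereas DESeq2 called 343 genes and limma on log2(FPKM + 1) called 1, and neither of these calls was among the 10. At an unadjusted p under 0.05 there were 0 of the 10 genes, beside 1153 of all tested genes (8.41%), with the test tumors higher for 432 (3.15%) and lower for 721 (5.26%). The 3 test and 3 control tumors overlapped for all 10 genes, beside 1642 of all tested genes (12.0%) for which they did not. The fitted log2 fold change, test minus control, was above 0 for 3 genes and below 0 for 7, with a median of -0.12 beside 0.02 over all tested genes. The adjusted p ran from 0.67 for *Socs1* to 0.999 for *Cish*. An exact two-sided permutation test over the 6 tumors, which cannot go below 0.1 with 3 against 3, gave 0.2 as its smallest p.

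The width of the intervals says how large a change these tumors could hide. For 7 of the 10 genes the 95% interval of the change lay within a 2-fold change in either direction, beside 32.1% of all tested genes. It ran from 0.596- to 1.79-fold for *Jak2*, from 0.572- to 1.76-fold for *Stat5a* and from 0.696- to 1.57-fold for *Socs2*. For the other 3 genes it reached further down, to 0.415-fold for *Stat3*, 0.265-fold for *Socs3* and 0.104-fold for *Socs1*.

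**Figure D2:**
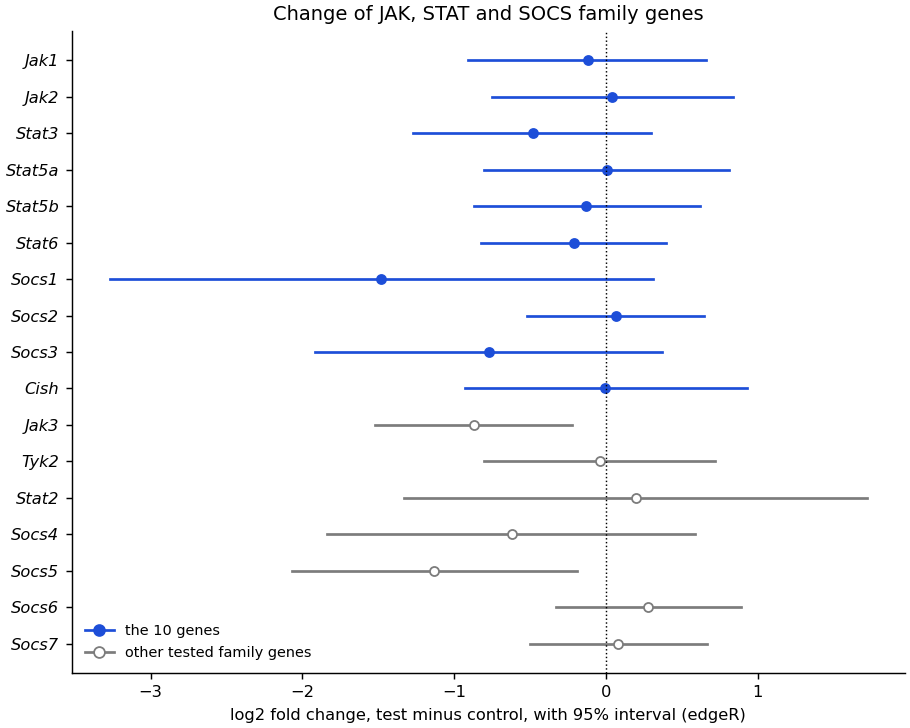
Log2 fold change, test minus control, from edgeR with its 95% interval, for the 10 genes (filled blue) and 7 other tested JAK, STAT and SOCS genes (open gray). The intervals of all 10 genes cross 0, and those of Jak3 and Socs5 lie below it.

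Among the kinases, *Jak1*, which serves gp130, interferon and IL-4 receptors, was measured at 242, 214 and 275 CPM in control replicates 1, 2 and 3, against 318, 139 and 214 CPM in test replicates 1, 2 and 3. The test tumors held both the highest and the lowest value, so that the group means of 244 ± 30.3 and 224 ± 89.8 CPM (SD, n = 3) differed by less than the spread of the test tumors. The log2 fold change was -0.12 (SE 0.34, 95% interval -0.91 to 0.66). *Jak2*, the kinase of the prolactin, growth hormone and common beta chain receptors, was at 59.8, 39.9 and 57.4 CPM in control tumors and 73.0, 33.2 and 55.9 CPM in test tumors. Again test replicate 1 was the highest and test replicate 2 the lowest of the 6, and the log2 fold change was 0.04 (SE 0.34). *Jak1* stood 3.57 to 5.04 times above *Jak2* in FPKM, and the ratio overlapped between the groups.

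*Stat3* had the largest fitted difference among the 4 STAT genes. It was measured at 493, 440 and 380 CPM in control replicates 1 to 3, against 419, 192 and 329 CPM in test replicates 1 to 3. Test replicates 2 and 3 were below every control tumor, and test replicate 1 was above control replicate 3. The means were 438 ± 56.5 CPM in control and 313 ± 114 CPM in test tumors (SD, n = 3), for a log2 fold change of -0.48 (SE 0.34, 95% interval -1.27 to 0.30) and an adjusted p of 0.734 by edgeR's quasi-likelihood test. Test replicate 2 carried much of the difference, since without it the log2 fold change was -0.23. *Stat6*, the STAT of IL-4 and IL-13, was at 114, 95.6 and 101 CPM in control tumors and 98.8, 65.2 and 105 CPM in test tumors. Only test replicate 2 stood below the control range, and the log2 fold change of -0.21 (SE 0.26) became -0.02 without that tumor.

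*Stat5a* and *Stat5b* encode the STAT5 proteins that act downstream of prolactin, growth hormone, IL-3, IL-5 and GM-CSF, and STAT5A is the major form in the mammary gland. *Stat5a* was at 53.9, 76.1 and 35.4 CPM in control replicates 1 to 3, against 72.9, 45.8 and 47.3 CPM in test replicates 1 to 3. All 3 test values lay inside the control range, and the log2 fold change was 0.005 (SE 0.35, 95% interval -0.80 to 0.81). *Stat5b* was at 66.4, 54.0 and 41.2 CPM in control and 65.6, 34.1 and 48.5 CPM in test tumors, and its log2 fold change was -0.13 (SE 0.32). The FPKM of *Stat5a* was above that of *Stat5b* in every tumor, by 1.03 to 1.8 times in control and 1.24 to 1.71 times in test tumors, and these ratios overlapped.

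The split of reads between the pair is less certain than their sum. *Stat5b*, *Stat5a* and *Stat3* follow one another on mouse chromosome 11 (GRCm38, chr11:100780731-100859004, chr11:100859351-100885169 and chr11:100886806-100939594). In the GENCODE transcripts for that build the longest open reading frames of *Stat5a* (2394 bases) and *Stat5b* (2361 bases) were 90.7% identical where aligned, against 55.3% for *Stat5a* and *Stat3*. The longest run of identical bases was 324, from base 571 to base 894 of both frames, and 25.9% of the 50-base windows and 11.5% of the 100-base windows of the *Stat5a* frame occurred unchanged in *Stat5b*. The stretch from base 845 to base 964, counted from the start codon and read 5′ to 3′, crosses the end of that run and is shown to make the likeness of the pair visible. The 1 base that differs within these 120 bases is in capitals.
*Stat5a*: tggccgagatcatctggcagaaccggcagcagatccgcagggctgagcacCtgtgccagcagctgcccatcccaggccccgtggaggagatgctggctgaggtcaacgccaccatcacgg
*Stat5b*: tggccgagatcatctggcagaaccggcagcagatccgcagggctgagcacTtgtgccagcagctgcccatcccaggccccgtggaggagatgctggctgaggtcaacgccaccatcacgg

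The deposited counts showed how this was handled. The expected count was a whole number in every tumor for the other 8 genes, and in no tumor for *Stat5a* or *Stat5b*. The sum of both genes was whole, at the 2 decimals deposited, in 6 of 6 tumors. In control replicate 1, for example, 466.22 and 573.78 added up to 1040 reads, and in test replicate 2, 375.07 and 278.93 added up to 654. *Stat5a* took between 44.8% and 58.6% of the sum. With the counts of both genes summed before the fit, the log2 fold change was -0.06 (SE 0.32, 95% interval -0.79 to 0.68), so that the comparison of total *Stat5* RNA did not rest on how the reads were divided.

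Of the feedback genes, *Socs1*, an inhibitor of JAK kinases downstream of interferons and IL-4, had the smallest unadjusted p of the 10. It was measured at 4.98, 0.865 and 2.56 CPM in control replicates 1 to 3, against 0.461, 1.46 and 1.06 CPM in test replicates 1 to 3. These levels rest on 43, 8 and 24 reads in the control and 4, 12 and 10 reads in the test tumors. The lowest of them is close to 3 counts, taken here as a floor for low levels that covers counting error only. Lower counts occur, such as 2 reads for *Tslp* in control replicates 1 and 2. Control replicates 1 and 3 stood above all test tumors and control replicate 2 stood below 2 of them. The log2 fold change was -1.48 (SE 0.77, 95% interval -3.27 to 0.31), with an unadjusted p of 0.0931 and an adjusted p of 0.67 by edgeR's quasi-likelihood test. Without control replicate 2 it was -1.91 with an unadjusted p of 0.0335, and without control replicate 1 it was -0.78 with no unadjusted p under 0.05. *Socs3*, which blocks gp130 signaling and is induced by STAT3, was at 80.2, 31.6 and 32.8 CPM in control and 15.7, 27.0 and 41.9 CPM in test tumors. Control replicate 1 alone stood above all others, and the log2 fold change moved from -0.77 (SE 0.49) with all tumors to -0.20 without it.

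*Socs2* and *Cish*, which restrain growth hormone and prolactin signaling and are induced by STAT5, were close between the groups. *Socs2* was at 46.1, 50.5 and 66.7 CPM in control and 48.2, 60.8 and 61.9 CPM in test tumors, with all test values inside the control range and a log2 fold change of 0.07 (SE 0.25). *Cish* was at 10.4, 10.4 and 18.6 CPM in control and 13.1, 17.5 and 8.81 CPM in test tumors. Its group means were 13.1 ± 4.76 and 13.1 ± 4.32 CPM (SD, n = 3), and the log2 fold change was -0.003 (SE 0.40, 95% interval -0.93 to 0.93).

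The promoters of *Cish* and *Socs3* are shown because these are the genes among the 10 that hold the palindromic letters TTCNNNGAA, the core pattern that STAT dimers recognize, in the 300 bases from 250 before to 50 after a RefSeq start (GRCm38.p6). The pattern reads the same on both strands. It was in the windows of 2 of the 9 genes that had one, beside 9.55% of the 27025 genes in the table and 8.30% of all 32851 windows. *Cish* held 2 copies, at bases 1 and 12 after the start, and 0.457% of all windows held 2 or more. *Socs3* held 1 copy, 154 bases before the start. Starts are those of the windows, and for *Socs3*, *Stat5a* and *Stat5b* each window lay inside the coordinates of the gene. The *Socs3* window reached chr11:117969616, whereas the gene, on the minus strand, reaches chr11:117970336. *Socs2* had no window in the table. The matches are letters in a reference sequence, no binding was measured, and the levels of both genes overlapped between the groups as given above. Both stretches are written 5′ to 3′ along the gene with the pattern in capitals, *Cish* from chr9:107296599-107296682 on the plus strand and *Socs3* from chr11:117969477-117969556 on the minus strand.
*Cish*: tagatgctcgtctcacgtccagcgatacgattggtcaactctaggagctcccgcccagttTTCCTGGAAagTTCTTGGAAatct
*Socs3*: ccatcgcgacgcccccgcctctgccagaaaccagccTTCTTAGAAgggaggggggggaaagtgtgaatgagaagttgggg

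Test replicate 2 held the lowest CPM of the 6 tumors for *Jak1*, *Jak2*, *Stat3*, *Stat5b* and *Stat6*, which is 5 of the 10 genes, beside 25.4% of all tested genes. This tumor also differed from the others by transcript length. Relative to the mean of the 6 tumors on the log2(CPM + 0.5) scale, its median deviation fell from 0.55 in the shortest 20% of tested genes to -0.45 in the longest 20%, whereas that of control replicate 1 ran the other way, from -0.25 to 0.23. Of the 10 genes, 6 lay in the longest 40% (3295 bases and longer), and test replicate 2 was the lowest tumor for 5 of these 6, beside 42.7% of all tested genes of that length. *Stat3*, at 4478 bases, deviated by -0.91 in that tumor and *Jak1*, at 5299 bases, by -0.70, whereas of the 4 shorter genes *Cish* deviated by 0.45, *Socs2* by 0.14, *Socs1* by -0.04 and *Socs3* by -0.32. *Socs1* lay in the shortest 20% of genes, whose median deviation in that tumor was 0.55.

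With each tumor's trend on length removed, *Stat3* was at 447, 443 and 357 CPM in control and 403, 234 and 328 CPM in test tumors, and test replicate 2 was still the lowest. The log2 fold change of *Stat3* then was -0.37, that of *Stat6* -0.12, that of *Jak1* 0.02 and that of *Stat5b* 0.02. *Socs1*, the shortest transcript of the 10, moved the other way, to -1.78. None of the 10 genes had an unadjusted p under 0.05 in that fit either, where the smallest was 0.0534 for *Socs1*.

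**Figure D3:**
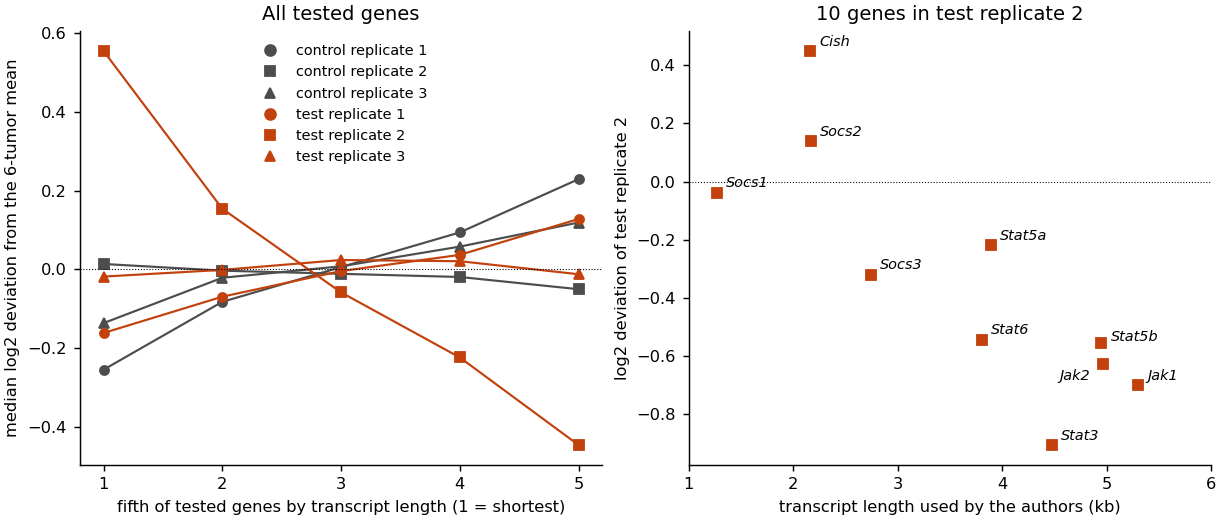
Left, median log2 deviation from the 6-tumor mean for tested genes in 5 equal classes of transcript length, 1 line per tumor (gray control, orange test); right, the deviation of test replicate 2 for each of the 10 genes against transcript length in kb. Test replicate 2 falls from 0.55 to -0.45 from the shortest to the longest class, and Jak1, Jak2, Stat3, Stat5b and Stat6 are low in it.

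Of 8 other genes of the 3 families 7 were tested. At an unadjusted p under 0.05, 2 of the 7 were lower in test tumors, beside 5.26% of all tested genes, 0 were higher, and 0 passed the adjusted threshold. *Jak3*, the kinase of the common gamma chain that serves lymphocyte cytokine receptors, was at 54.4, 41.6 and 45.7 CPM in control and 28.1, 30.4 and 19.0 CPM in test tumors. All test tumors were below all control tumors, for a log2 fold change of -0.87 (SE 0.28, 95% interval -1.52 to -0.22), an unadjusted p of 0.0148 and an adjusted p of 0.471. The unadjusted p of *Jak3* was 0.0564 without control replicate 1 and 0.056 without test replicate 3. Its usual partner *Il2rg*, the gamma chain, was at 2.08 to 11.4 CPM with groups that overlapped and a log2 fold change of 0.04, and the T cell markers summed to 5.08 to 7.56 CPM in control and 4.96 to 9.52 CPM in test tumors, with *Cd3e* at or under 0.746 CPM. *Socs5*, a SOCS gene linked to EGF receptor and IL-4 signaling, was at 148, 72.8 and 106 CPM in control and 28.5, 49.9 and 71.0 CPM in test tumors. The gap between the lowest control and the highest test tumor was narrow, and the log2 fold change was -1.13 (SE 0.41, 95% interval -2.07 to -0.19) with an unadjusted p of 0.0247 and an adjusted p of 0.506. That unadjusted p was 0.085 without control replicate 1, 0.0639 without test replicate 1 and 0.0638 without test replicate 2. *Tyk2*, *Stat2*, *Socs4*, *Socs6* and *Socs7* overlapped between groups, with log2 fold changes from -0.62 to 0.28, and *Stat4* stayed under 0.65 CPM and was not tested. *Stat2*, which interferons induce, varied widely between tumors of the same group, from 20.0 to 99.6 CPM among control and from 24.8 to 103 CPM among test tumors.

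Upstream, the genes for ligands and receptors gave the same picture of overlap with a few exceptions. Of 16 ligand genes 11 were listed in the files and 4 were tested, and *Prl*, *Il3*, *Il4*, *Il13* and *Il2* were not analysed here. *Csf3*, the gene of G-CSF, was at 3.7, 3.35 and 5.01 CPM in control and 0.692, 1.22 and 2.33 CPM in test tumors, without overlap (log2 fold change -1.49, SE 0.58, unadjusted p of 0.0338, adjusted p of 0.545). The unadjusted p of *Csf3* was under 0.05 in 8 of 13 alternatives and between 0.0504 and 0.121 without control replicate 1, 2 or 3 or test replicate 1 or 2. Of 7 gp130 family receptor genes 6 were tested, 1 lower and 1 higher at an unadjusted p under 0.05, beside 5.26% and 3.15% of all tested genes. *Osmr*, the oncostatin M receptor that signals through JAK1 and STAT3, was at 278, 217 and 179 CPM in control and 120, 129 and 143 CPM in test tumors, and the groups did not overlap (log2 fold change -0.78, SE 0.26, unadjusted p of 0.0167, adjusted p of 0.475), with an unadjusted p of 0.0792 without control replicate 1 and 0.0502 without test replicate 1. The higher one, *Cntfr*, overlapped between groups. It was named after its values were seen.

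The receptors that lead to STAT5 and STAT6 overlapped between the groups. Of all tested genes, 12.0% did not overlap. *Prlr*, the prolactin receptor, was at 129, 236 and 183 CPM in control and 414, 202 and 205 CPM in test tumors. Test replicate 1 alone exceeded the control range, and the log2 fold change of 0.58 (SE 0.38) was 0.16 without it. Without control replicate 2 it was 0.81. The *Prlr* transcript is long, at 9751 bases. With the length trend removed, *Prlr* was at 107, 242 and 163 CPM in control and 366, 288 and 214 CPM in test tumors. Test replicates 1 and 2 then exceeded the control range, and the log2 fold change was 0.76. Of the 5 common beta chain receptor genes, 5 were tested and 0 had an unadjusted p under 0.05, beside 8.41% of all tested genes. *Csf2rb*, the common beta chain itself, had a log2 fold change of -0.45 (SE 0.29), *Csf2rb2*, the beta chain of the mouse IL-3 receptor, one of -0.08 (SE 0.40), and *Il4ra*, the IL-4 receptor alpha chain, one of -0.11 (SE 0.23). *Csf2rb* and *Csf2rb2* are paralogs, their counts were non-whole in every tumor, and how their reads were assigned was not tested. None of the 3 tested hormone receptor genes, the 7 tested type 2 and gamma chain receptor genes, the 6 tested interferon and IL-10 receptor genes or the 10 tested negative regulators (PIAS genes, phosphatases, *Sh2b3* and *Cbl*) had an unadjusted p under 0.05. In lists this short, a count of 0 is close to the share of 8.41% over all tested genes. The log2 fold changes of those negative regulators ran from -0.93 to 0.44.

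Downstream, the lists of target genes had fitted differences in both directions, and no gene in them passed the adjusted threshold. Of 13 STAT5 target genes 11 were tested, 8 were above and 3 below 0 with a median log2 fold change of 0.51, and 3 were higher at an unadjusted p under 0.05, beside 3.15% of all tested genes. This list was chosen with earlier results of these data known, and the study had already reported *Csn2* as higher in test tumors. The count is therefore a description and does not test for enrichment. *Csn2*, the gene of beta-casein, was at 0.463, 0.649 and 0.533 CPM in control and 9.34, 25.6 and 1.7 CPM in test tumors. All test tumors were above all control tumors, with a wide range among themselves, and the log2 fold change was 4.44 (SE 0.98) with an unadjusted p of 0.00217 and an adjusted p of 0.394. These *Csn2* values rest on 4, 6 and 5 reads in control and 81, 210 and 16 reads in test tumors, so the control counts are close to the floor of 3. The log2 fold change was 2.47 by limma on log2(FPKM + 1) and ran from 3.29 to 4.97 with a tumor left out. *Csn3*, the gene of kappa-casein, was at 6946, 2429 and 6358 CPM in control and 15725, 10504 and 15665 CPM in test tumors (log2 fold change 1.41, SE 0.50). Its unadjusted p of 0.0227 was 0.0513 without test replicate 1 and 0.0526 without test replicate 3. Not all caseins were higher, since *Csn1s1*, the gene of alpha-S1-casein, was at 315, 306 and 51.1 CPM in control and 83.1, 317 and 83.3 CPM in test tumors, with groups that overlapped (log2 fold change -0.47, SE 0.76). *Gadd45g*, a growth arrest gene, was at 4.28, 4.65 and 4.16 CPM in control and 24.2, 7.2 and 5.2 CPM in test tumors, where test replicate 1 carried most of the log2 fold change of 1.48 (SE 0.61), which was 0.50 without it. The unadjusted p of *Gadd45g*, 0.0432, was under 0.05 in 6 of 14 alternatives, and it was 0.1 with the replicate block, 0.09 with the length trend removed, and 0.0856 and 0.0789 by limma on log2(FPKM + 1) and log2(FPKM + 0.1). Leaving out any 1 control tumor gave 0.0779 to 0.0982, and leaving out test replicate 1 gave 0.296. *Elf5*, the alveolar transcription factor, overlapped between groups with a log2 fold change of 0.73 (SE 0.47). With a tumor left out it ran from 0.40 (without control replicate 1) to 1.27 (without control replicate 2). The latter had an unadjusted p of 0.0242 by edgeR's quasi-likelihood test. *Cish* and *Socs2*, the STAT5-induced inhibitors among the 10 genes, had the values near 0 given above.

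These STAT5 target genes stood beside higher fitted levels of epithelial markers, whose part in the result was not tested. All 6 of *Epcam*, *Krt8*, *Krt18*, *Krt19*, *Cdh1* and *Elf3* had a log2 fold change above 0, and their summed level was 1610 to 3610 CPM in control and 4730 to 5060 CPM in test tumors. *Krt8*, *Krt18* and *Krt19*, the keratins of luminal cells, were higher without overlap at log2 fold changes of 1.22, 1.01 and 1.82 and unadjusted p of 0.0112, 0.0439 and 0.00275, and none passed the adjusted threshold. The unadjusted p of *Krt18* was under 0.05 in 8 of 14 alternatives, being 0.055 with the length trend removed and 0.068 to 0.15 without control replicate 1 or 3 or without any 1 test tumor, and that of *Krt8* was 0.0526 without control replicate 3. In bulk tumors, fewer cells of a type and less RNA per cell cannot be told apart. Skeletal muscle markers summed to 5.11 to 179 CPM in control and 99.5 to 904 CPM in test tumors and adipocyte markers to 12.2 to 24.7 and 14.6 to 238 CPM, with test replicate 1 the highest for both. That tumor was also the highest for *Jak1*, *Jak2* and *Prlr*, and the part of muscle and fat in those values was not tested. In the adipocyte list 2 of 2 tested genes, *Adipoq* and *Fabp4*, were higher at an unadjusted p of 0.0244 and 0.0346, with groups that overlapped. Of all tested genes, 3.15% were higher at an unadjusted p under 0.05. Fibroblast, endothelial and myoepithelial lists had 0 genes at an unadjusted p under 0.05, beside 8.41% of all tested genes in either direction.

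Among the STAT3 and STAT6 targets few genes separated the groups. Of 15 STAT3 target genes 11 were below and 4 above 0, with a median log2 fold change of -0.39. At an unadjusted p under 0.05, 1 of the 15 was lower, beside 5.26% of all tested genes. That gene was *Icam1*, an adhesion molecule also induced by NF-kappaB and interferon, at 39.7, 19.9 and 50.5 CPM in control and 9.57, 12.2 and 9.44 CPM in test tumors. The test tumors lay close together below every control tumor, and the log2 fold change was -1.82 (SE 0.39, 95% interval -2.72 to -0.92) with an unadjusted p of 0.00173 and an adjusted p of 0.394. Of 12 STAT6 target genes 6 were tested, and 0 of them had an unadjusted p under 0.05, beside 8.41% of all tested genes. *Retnla*, the gene of the secreted protein RELM-alpha, was too low to be tested, but its groups did not overlap, at 0, 0.649 and 0 CPM in control and 2.65, 12.2 and 0.955 CPM in test tumors. These values rest on 0, 6 and 0 reads in control and 23, 100 and 9 reads in test tumors.

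Overlap was absent for 5 of 11 tested STAT5 targets, 2 of 15 STAT3 targets and 2 of 7 other family genes. It was also absent for 1 of 10 negative regulators, 1 of 4 ligands, 1 of 6 gp130 receptors and 1 of 6 interferon and IL-10 receptors. Tested genes of the other pathway lists all overlapped. Of all tested genes, 12.0% did not overlap and 8.41% had an unadjusted p under 0.05. Over all pathway lists, 13 tested genes did not overlap between the groups, and 8 of these had an unadjusted p under 0.05. The other 5 were *Ifngr1* (log2 fold change 0.49, unadjusted p of 0.0679) and *Pim1* (0.51, 0.182), higher in test tumors, and *Ptpn1* (-0.49, 0.0525), *Pim2* (-0.80, 0.0756) and *Igfbp5* (-0.97, 0.0764), lower in them. These 5 and *Csn1s1*, *Retnla*, *Adipoq* and *Fabp4* were named after their values were seen.

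**Figure D4:**
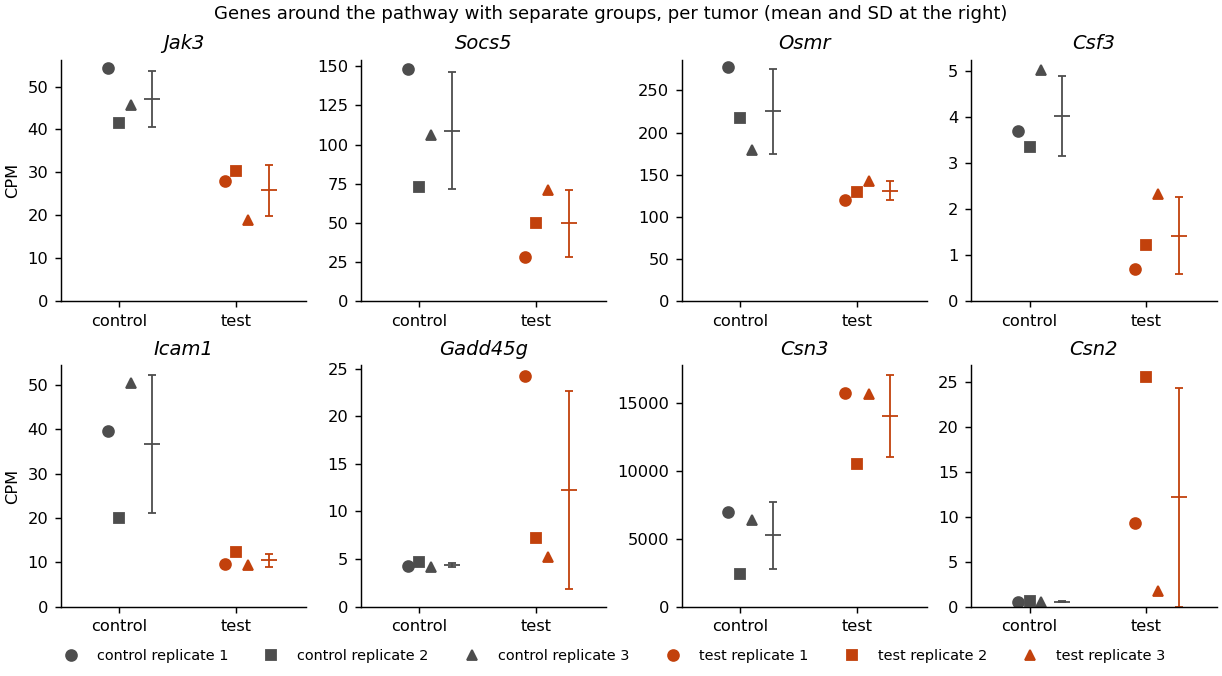
CPM per tumor for the 8 genes of the pathway lists whose 3 control (gray) and 3 test tumors (orange) did not overlap and whose unadjusted p was under 0.05; bars at the right of each group are the mean and SD. Jak3, Socs5, Osmr, Csf3 and Icam1 are lower and Gadd45g, Csn3 and Csn2 higher in test tumors, none with an adjusted p under 0.05. Of all tested genes, 12.0% did not overlap and 8.41% had an unadjusted p under 0.05.

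*Socs1* followed a pattern across tumors that other tested genes shared, and how many did so was not counted. The 5 tested genes with the highest Pearson correlation to *Socs1* over the 6 tumors, on log2(CPM + 0.5), were *Csf3r* (0.998), *Pofut2* (0.997), *Cd68* (0.997), *Cpq* (0.994) and *Bmp15* (0.993), picked from all tested genes and therefore given as a description. *Cd68*, a macrophage marker, was at 102, 23.5 and 57.1 CPM in control and 19.3, 37.4 and 29.6 CPM in test tumors, and *Csf3r*, the G-CSF receptor of granulocytes, at 39.2, 6.27 and 18.1 and at 4.04, 11.0 and 8.49 CPM. In both, control replicate 1 was the highest and test replicate 1 the lowest tumor, as in *Socs1*. Other markers of these cell types did not all follow that order. *S100a9* had the same highest and lowest tumor, and *Itgam* and *S100a8* were highest in control replicate 1 and lowest in test replicate 2. *Csf1r*, *Adgre1* and *Lyz2* were highest in control replicate 3, *Cxcr2* in test replicate 2 and *Retnlg* in test replicate 3. These other markers were named after their values were seen. The macrophage list had 5 of 5 genes below 0, 1 of them at an unadjusted p under 0.05, beside 5.26% of all tested genes. Its sum was 346 to 660 CPM in control and 228 to 459 CPM in test tumors. The granulocyte list had 3 of 4 tested genes below 0 and summed to 58.0 to 113 CPM in control and 25.5 to 69.2 CPM in test tumors. The part of these cell types in the level of *Socs1* was not tested.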

How the data were processed

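Per tumor, the authors deposited 3 values of each gene, namely the expected count, without normalization, the FPKM, normalized by the authors for transcript length and depth, and the transcript length in bases. Per the study's methods, RNA reads were mapped to mm10 by Bowtie, and the submitters' processing notes also name RSEM. Versions and the counting settings are not given in the sources used here. Genes without an entry for a tumor were set to 0.

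Rounded expected counts were fitted with edgeR 4.0.16 in R 4.3.3 (filterByExpr, TMM, quasi-likelihood test of 3 test against 3 control tumors without covariates, Benjamini-Hochberg adjustment), at a common biological coefficient of variation of 0.434. SE is the size of the log2 fold change divided by the square root of F. Permutation tests used the mean of log2(CPM + 0.5). The fit was tested on simulated data. Some genes are not reported here.

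The 10 genes, the gene lists and the tests were chosen with earlier results of these data known. Beside the 10, genes of the lists are named if their unadjusted p was under 0.05 and the groups did not overlap, plus *Tslp*, *Prlr*, *Il4ra*, *Csf2rb*, *Csf2rb2*, *Csn2* and *Elf5*, and further family genes by range. Alternatives were DESeq2 1.42.0, RLE, 2 filters, limma-trend (limma 3.58.1) on FPKM of genes with a mean of at least 1, a replicate block, leaving out each tumor, *Stat5a* and *Stat5b* summed, and, added after seeing the data, removal of each tumor's length trend.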

Additional observations from a re-analysis of the deposited data

How the results depend on the processing

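Under 14 alternatives the count of the 10 genes at an adjusted p under 0.05 was 0 each time. Over all genes that count was 343 with DESeq2, 1 with limma-trend on log2(FPKM + 1), and 0 to 182 with a tumor left out, 182 being without control replicate 2. Across genes, on log2 CPM, control replicate 2 correlated at 0.916, 0.922 and 0.930 with test replicates 1, 2 and 3. Its correlations with control replicates 1 and 3 were lower, at 0.867 and 0.902. The part of this likeness in the overlaps and counts was not tested. Leaving out a tumor moved the count of all genes at an unadjusted p under 0.05 from 1153 to between 654 and 2020, that of the 10 genes from 0 to at most 1 (*Socs1*, without control replicate 2), and their median log2 fold change from -0.123 to between -0.334 (without test replicate 1) and -0.001 (without test replicate 2). Values near 0 changed sign. *Jak1* ran from -0.462 to 0.129, *Jak2* from -0.232 to 0.302, *Stat5a* from -0.245 to 0.311, *Stat5b* from -0.383 to 0.083, *Socs2* from -0.046 to 0.233, *Cish* from -0.259 to 0.33 and *Csf2rb2* from -0.331 to 0.202 with a tumor left out. With the length trend removed *Jak1* was 0.021, *Stat5b* 0.015, *Il4ra* 0.075 and *Csf2rb2* 0.121. *Jak2* was -0.003 with limma-trend on log2(FPKM + 1) and -0.01 on log2(FPKM + 0.1), *Stat5a* -0.006 with no filter and -0.058 summed with *Stat5b*, and *Cish* 0.001 with RLE and 0.003 with at least 10 counts in every tumor, a filter that *Socs1* did not pass. The cause of these sign changes was not tested. The other 18 of 26 named genes kept their direction. *Icam1* passed the adjusted threshold with DESeq2 and without control replicate 2, and *Csn2* and *Krt19* with DESeq2.

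Replicate numbers shared by the groups were not taken as pairs. Same-numbered test and control tumors deviated with correlations of -0.03, 0.11 and -0.14 across genes, beside -0.15 to 0.21 for differently numbered tumors. With 3 tumors per group these correlations cannot show that no tumors were matched. With the replicate block 1056 genes had an unadjusted p under 0.05 and 0 an adjusted p under 0.05, and *Jak2* was -0.005 and *Cish* 0.01.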
